A study of Mus musculus with 15 samples.

Results

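The genes described here are 8 genes known from fetal and regenerating intestinal epithelium, Clu, Ly6a, Anxa1, Anxa3, Il33, Il1rn, Msln and Spp1. They are the rows of the deposited count table whose Entrez gene number belongs to one of these symbols, 8 of 27179 rows, and 7 of them were among the 13883 genes tested. Msln did not pass the filter on low counts and is given by its counts only. RNA was sequenced from epithelial cells of Lrig1-eGFP-IRES-CreERT2 x APCmin mice, so every group, the normal ones included, carried an Apc allele that causes intestinal tumors and a reporter of Lrig1, which encodes a negative regulator of ErbB receptors found in crypt stem cells. Tissue labelled normal colonic epithelium or colonic tumors was dissociated with EDTA, TrypLE and dispase, and cells with EpCam and without CD45 and CD31 were sorted into a low and a high fraction of the eGFP signal, per the labels' protocols. The groups were normal Lrig1-low (libraries S01, S05, S09 and S13), normal Lrig1-high (S02, S06, S10 and S14), tumor Lrig1-low (S03, S07 and S11) and tumor Lrig1-high (S04, S08 and S12). S15, also labelled as Lrig1-low tumor cells, was left out with its 357 counts. The labels name no treatment, animal, age or sex and do not say whether animals were pooled, so the p-values measure only the spread between these libraries, which may be technical in part.

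After injury, part of the intestinal epithelium leaves the programme of the adult crypt for a while and turns on genes that are otherwise characteristic of the fetal gut. Ly6a, which encodes the surface protein Sca-1, and Clu, which encodes the secreted chaperone clusterin, are widely used markers of that state, and Anxa1 and Anxa3 encode annexins, proteins that bind membrane phospholipids in the presence of calcium. The transcription co-activator YAP and its DNA-binding TEAD partners are known drivers of the state. Il33 encodes an alarmin, a cytokine released from damaged cells, Il1rn encodes the antagonist that blocks the interleukin-1 receptor, Spp1 encodes the secreted matrix protein osteopontin, and Msln encodes mesothelin, a membrane-anchored glycoprotein.

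The 14 libraries compared held 9508505 to 17296536 counts, so 3 counts corresponded to 0.173 to 0.324 CPM (counts per 1000000 counts of the library, scaled with TMM factors). Epcam was at 604.7 to 1509 CPM in them, and Pecam1, which encodes CD31, at 1.85 CPM or less. Against the tissue label, 11 small intestine markers summed to 2237 to 10350 CPM per library and 9 colon markers to 142.6 to 357.4 CPM. In 4 libraries the level of Lrig1 went against the sort label, in S09 only in part. Among normal cells these were S10, labelled Lrig1-high and at 36.4 CPM where the rest of its group had 126.2 to 145.9 CPM, and S09, labelled Lrig1-low and at 85.5 CPM where the rest had 45.3 to 54.0 CPM. Among tumor cells they were S07, labelled Lrig1-low and at 141.7 CPM beside S03 at 53.2 CPM and S11 at 43.0 CPM, and S08, labelled Lrig1-high and at 55.7 CPM beside S04 at 148.2 CPM and S12 at 72.6 CPM. The comparisons of tumor with normal cells are also given without these 4 libraries. This leaves S03 and S11 in the tumor Lrig1-low group and S04 and S12 in the tumor Lrig1-high group. S09 itself stayed below S02, S06 and S14 in Lrig1, and S12, which was kept, lay below S09. Of the 14 libraries S12 had the fewest genes with a count (11995) and the lowest Epcam (604.7 CPM). All 14 are bulk libraries. In them a change in the number of cells that express a gene cannot be told apart from a change in RNA per cell.

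Stretches just upstream of the start sites are shown because TEAD factors are part of the background given above and because all 8 genes had their highest level in the same library, S11. RefSeq promoter windows (GRCm38.p6, the same assembly as mm10) were found for 4 of the 8 genes, Anxa1, Il33, Il1rn and Spp1, with 8 windows in all, and none for Clu, Ly6a, Anxa3 and Msln. The 250 bases upstream of each start were searched on both strands for GGAATG (bound by TEAD), TGANTCA (AP-1), ATCAAAG (TCF/LEF) and the NF-kB letters (GGG and CC with 5 free bases between them), and no match in the windows printed here overlapped another. Capitals mark the matches, and each window is written 5′ to 3′ on the strand of its gene. The Anxa1 window is chr19:20390672-20390921 on the minus strand, the windows of both Il33 starts are chr19:29924863-29925112 and chr19:29945540-29945789 on the plus strand, and the window of the most upstream Il1rn start is chr2:24336610-24336859 on the plus strand.
Anxa1: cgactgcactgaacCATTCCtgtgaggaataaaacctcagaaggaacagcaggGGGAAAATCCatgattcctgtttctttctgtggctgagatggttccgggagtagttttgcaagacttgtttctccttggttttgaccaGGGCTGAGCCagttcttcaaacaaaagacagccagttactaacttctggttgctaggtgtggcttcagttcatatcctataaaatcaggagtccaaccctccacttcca
Il33, start 1: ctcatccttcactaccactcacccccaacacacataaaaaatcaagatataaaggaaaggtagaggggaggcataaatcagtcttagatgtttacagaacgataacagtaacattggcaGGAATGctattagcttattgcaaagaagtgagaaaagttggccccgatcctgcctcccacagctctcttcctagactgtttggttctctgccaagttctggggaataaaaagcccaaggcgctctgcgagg
Il33, start 2: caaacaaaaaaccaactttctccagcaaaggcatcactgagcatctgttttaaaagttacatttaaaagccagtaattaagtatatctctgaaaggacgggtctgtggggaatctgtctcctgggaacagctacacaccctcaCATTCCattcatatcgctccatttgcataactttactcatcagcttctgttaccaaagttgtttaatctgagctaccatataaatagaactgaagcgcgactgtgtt
Il1rn, start 1: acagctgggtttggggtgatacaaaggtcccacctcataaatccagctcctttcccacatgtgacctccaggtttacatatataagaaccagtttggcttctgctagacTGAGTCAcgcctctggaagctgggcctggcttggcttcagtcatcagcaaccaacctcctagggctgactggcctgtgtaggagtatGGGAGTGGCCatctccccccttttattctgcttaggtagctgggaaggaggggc
The TEAD letters stood in 4 of the 8 windows, in 3 of the 4 genes, and in 12.6% of 32851 RefSeq mouse windows of the same length. They began 236 bases upstream of the Anxa1 start, at 131 and 107 bases upstream of the Il33 starts, and at 24 bases upstream of Il1rn start 3, whose window is not printed. The AP-1 letters stood in 1 of the 8 windows, 141 bases upstream of Il1rn start 1, against 6.75% of all windows. The NF-kB letters stood in 3 of the 8 windows against 45.8% of all windows, and the TCF/LEF letters in none against 3.21%. A match is a description of these letters and not a measured site, and Spp1 held no match in either of its windows. The percentages count windows and not genes, and the windows of Il1rn starts 2 and 3 overlap, so the comparison is not like for like.

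Clu (gene 12759, mm10 chromosome 14, 65968483 to 65981545, plus strand, 9 exons), whose product is an extracellular chaperone and lipoprotein component, was the most abundant of the 8 genes in the tumor libraries. In tumor Lrig1-low cells it was at 539.9 CPM in S03, 146.7 CPM in S07 and 1630 CPM in S11, and in tumor Lrig1-high cells at 131.8 CPM in S04, 403.3 CPM in S08 and 354.7 CPM in S12. In normal Lrig1-low cells it was at 3.91, 15.6, 96.7 and 4.04 CPM in S01, S05, S09 and S13, and in normal Lrig1-high cells at 1.07, 0.993, 271.4 and 3.55 CPM in S02, S06, S10 and S14. Every tumor Lrig1-low library lay above every normal Lrig1-low library, while in the Lrig1-high fraction the groups overlapped because S10 lay above S04. Without S10, all 6 tumor libraries lay above all normal libraries, as they did for 1.58% of the genes tested. Clu made up 84.6% to 90.0% of the summed CPM of the 8 genes in the tumor libraries, and 36.6% to 94.9% over all 14 libraries, with the highest shares in S09 and S10.

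Anxa1 (gene 16952, chromosome 19, 20373434 to 20390671, minus strand, 13 exons), which encodes a membrane-binding protein that restrains inflammation and whose upstream window is printed above, was close to absent in normal cells. It was at 0.815, 0.537, 0.462 and 0.311 CPM in the normal Lrig1-low libraries S01, S05, S09 and S13, 4 to 10 counts each. In the normal Lrig1-high libraries S02, S06 and S14 it had 1, 0 and 0 counts, and in S10 it was at 7.27 CPM, 120 counts. The tumor Lrig1-low libraries S03, S07 and S11 had 24.9, 4.25 and 84.4 CPM, and the tumor Lrig1-high libraries S04, S08 and S12 had 4.99, 27.8 and 23.3 CPM. As for Clu, the groups of the Lrig1-low fraction did not overlap, and all 6 tumor libraries lay above every normal library except S10. S04 and S07 were the lowest tumor libraries and lay below S10.

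Anxa3 (gene 11745, chromosome 5, 96793385 to 96845968, plus strand, 13 exons), an annexin of the same fold, was spread differently. It was at 9.01, 7.53 and 11.1 CPM in the tumor Lrig1-low libraries S03, S07 and S11, 9.22 ± 1.80 CPM (SD, n = 3). The tumor Lrig1-high libraries S04, S08 and S12 had 3.57, 3.56 and 0 CPM, all below every tumor Lrig1-low library. The normal Lrig1-low libraries S01, S05, S09 and S13 had 0.897, 5.37, 0.660 and 1.87 CPM, and the normal Lrig1-high libraries S02, S06, S10 and S14 had 0.379, 0.662, 2.36 and 0.941 CPM. The tumor Lrig1-low group thus lay above the normal Lrig1-low group without overlap, and the 2 Lrig1-high groups overlapped, since S12 had no count.

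Il33 (gene 77125, chromosome 19, 29925114 to 29960715, plus strand, 9 exons), the alarmin whose 2 upstream windows are printed above, was present in every library. It was at 23.5, 2.64 and 48.0 CPM in the tumor Lrig1-low libraries S03, S07 and S11 and at 3.57, 25.4 and 27.8 CPM in the tumor Lrig1-high libraries S04, S08 and S12. The normal Lrig1-low libraries S01, S05, S09 and S13 had 3.02, 3.49, 2.44 and 1.40 CPM, and the normal Lrig1-high libraries S02, S06, S10 and S14 had 0.505, 0.662, 6.97 and 0.145 CPM. Of the tumor libraries 4 lay above all normal libraries, S04 lay above all but S10, and S07 lay among the normal Lrig1-low libraries.

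Il1rn (gene 16181, chromosome 2, 24336860 to 24351491, plus strand, 6 exons), the interleukin-1 receptor antagonist, was lower than Il33 per kilobase of exon, with group medians of 2.51 against 9.01 CPM per kilobase in tumor Lrig1-low cells and 0.964 against 9.75 CPM per kilobase in tumor Lrig1-high cells. The tumor Lrig1-low libraries S03, S07 and S11 had 6.76, 0.230 and 28.1 CPM, and the tumor Lrig1-high libraries S04, S08 and S12 had 2.30, 3.10 and 2.59 CPM. The normal Lrig1-low libraries S01, S05, S09 and S13 had 0.0815, 0, 0.859 and 0.389 CPM, and the normal Lrig1-high libraries S02, S06, S10 and S14 had 0.316, 0.397, 2.12 and 0.145 CPM. It was the only one of the 8 genes whose tumor Lrig1-high libraries lay above every normal Lrig1-high library, S10 included, as they did for 3.37% of the genes tested. In the Lrig1-low fraction the groups overlapped because of S07.

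Spp1 (gene 20750, chromosome 5, 104435111 to 104441053, plus strand, 8 exons), which encodes osteopontin, had no count in the normal Lrig1-high libraries S02, S06 and S14 and was at 7.03 CPM in S10. The normal Lrig1-low libraries S01, S05, S09 and S13 had 0.897, 0.358, 0.792 and 0.311 CPM. The tumor Lrig1-low libraries S03, S07 and S11 had 19.3, 0.460 and 48.5 CPM, and the tumor Lrig1-high libraries S04, S08 and S12 had 1.59, 13.7 and 11.1 CPM. The library S07 lay inside the range of normal Lrig1-low cells, and the other 5 tumor libraries lay above every normal library except S10.

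Ly6a (gene 110454, chromosome 15, 74994877 to 74997888, minus strand, 4 exons) and Msln (gene 56047, chromosome 17, 25748613 to 25754327, minus strand, 16 exons) were near the limit of detection. Ly6a had 11, 20 and 35 counts in the tumor Lrig1-low libraries S03, S07 and S11 (0.775, 1.15 and 2.59 CPM) and 4, 0 and 0 counts in the tumor Lrig1-high libraries S04, S08 and S12. Of the 8 normal libraries 5 had no count of Ly6a, S02 and S14 had 2 each, and S13 had 9 (0.700 CPM). The tumor Lrig1-low libraries lay above all the others, by a small margin over S13. The file header names no option for reads that map to several places, so the counts of Ly6a can miss reads shared with near-identical Ly6 genes. Msln had 54 counts in S11, 8 in S03 and 1 in S10, and none in the other 11 libraries. Over the group, tumor Lrig1-low cells had 62 counts of Msln and normal Lrig1-low cells none, at least 23.6-fold higher when 3 counts over the normal group are taken as the floor, a bound that covers counting error only and rests on S11.

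**Figure D1:**
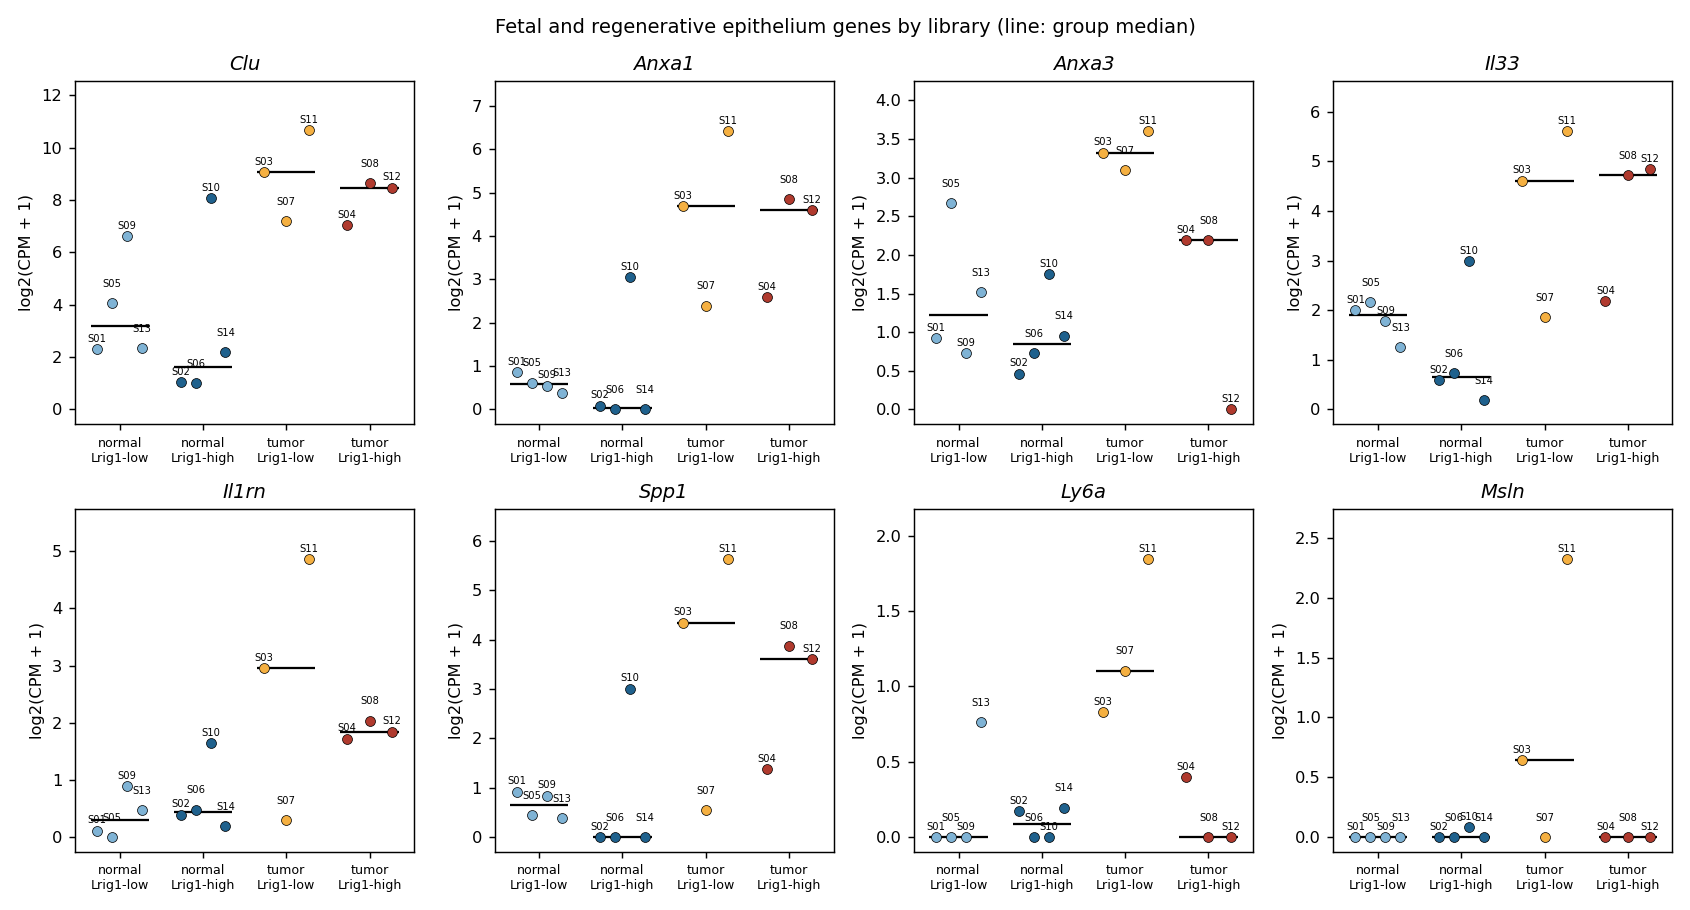
Level of each of the 8 genes in the 14 libraries, as log2(CPM + 1) on an axis of its own per gene, by group, with a point per library and a line at the group median. S11 is the highest library in all 8 panels, and S10 stands above the other 3 normal Lrig1-high libraries for 7 of the 8 genes, from Clu (271.4 CPM) to Msln (1 count), with Ly6a the exception.

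Compared per kilobase of exon, the median of Clu over the 6 tumor libraries was 209.6 CPM per kilobase, followed by Anxa1 at 17.3, Il33 at 9.38, Spp1 at 7.49, Anxa3 at 3.48, Il1rn at 1.06, Ly6a at 0.659 and Msln at 0. Clu and Anxa1 were the only neighbours in that order whose ranges over the tumor libraries did not overlap. Over the 8 normal libraries the order was Clu at 2.20 CPM per kilobase, Il33 at 0.738, Anxa3 at 0.575, Anxa1 at 0.277, Spp1 at 0.202 and Il1rn at 0.131, with Ly6a and Msln at 0, and the ranges of all neighbours overlapped. Anxa1 thus stood behind Il33 and Anxa3 in normal cells and before both in tumor cells, and it lay above Il33 in 6 of the 6 tumor libraries.

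In tumor cells averaged over both Lrig1 fractions, Anxa1 was higher than in normal cells and passed the test, and the other 6 tested genes had positive log2 fold changes that did not pass it. Averaged with equal weight to both fractions, the log2 fold change of Anxa1 was 4.73 ± 1.10 (SE, n = 6 and 8, adjusted p = 0.0439, edgeR's quasi-likelihood test with Benjamini-Hochberg adjustment over all genes tested). The next genes by adjusted p were Il33 at 3.21 ± 0.81 (adjusted p = 0.0552) and Il1rn at 3.44 ± 0.94 (adjusted p = 0.0739). Spp1 was at 3.78 ± 1.23 (adjusted p = 0.126), Clu at 3.39 ± 1.21 (adjusted p = 0.159), Anxa3 at 1.60 ± 0.76 (adjusted p = 0.296) and Ly6a at 1.86 ± 1.20 (adjusted p = 0.463). This comparison called 308 genes, 2.22% of those tested, 253 of them higher in tumor cells, beside 1 of the 7 tested genes described here. At an unadjusted p under 0.05, 5 of the 7 passed beside 17.4% of all genes. The median log2 fold change of the 7 was 3.39, against -0.02 over all genes tested, and 7 of 7 were positive, against 48.4% of all genes. The genes were chosen with earlier results of these data known, and all had their highest level in S11. These shares are therefore descriptions only, and the genes are not independent of each other.

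The call of Anxa1 and the size of several fold changes turned on single libraries. Leaving out S10, the normal Lrig1-high library with high levels, raised the log2 fold change of Clu to 5.996 ± 0.942 (adjusted p = 0.00719), that of Anxa1 to 7.68 ± 0.85 (adjusted p = 0.00315), that of Il33 to 4.32 ± 0.69 (adjusted p = 0.00757) and that of Il1rn to 4.12 ± 0.97 (adjusted p = 0.0372). Without S10 Spp1 also passed the threshold (adjusted p = 0.00965), and its fold change is not given because the remaining normal Lrig1-high libraries had no count, so 5 of the 7 tested genes were called beside 3.38% of the genes in that fit. Without S07, S08, S09 and S10 the same 5 were called beside 4.71% of the genes in that fit, with Clu at 7.07 ± 0.66, Anxa1 at 7.69 ± 0.71, Il33 at 4.43 ± 0.63 and Il1rn at 4.86 ± 0.74 on the log2 scale (adjusted p = 0.00147, 0.00147, 0.00636 and 0.00818), while Anxa3 was at 1.68 ± 0.90 and Ly6a at 1.81 ± 1.28. That fit kept 2 libraries in each tumor group. S07, which it left out, had the lowest tumor Lrig1-low level of the 5 called genes, and S10 their highest normal level. Without S10, alone or with S07, S08 and S09, normal Lrig1-high cells held 1 count of Anxa1 in all, so its estimates there are poorly measured. Leaving out S11, the tumor library with the highest levels, lowered Anxa1 to 4.05 ± 1.14 (edgeR adjusted p = 0.151) and Clu to 2.80 ± 1.23 (adjusted p = 0.375). The call of Anxa1 held without S04, S07 or S10 and was lost without any of the other 11 libraries, S01, S02, S03, S05, S06, S08, S09, S11, S12, S13 and S14, with adjusted p-values of 0.0571 to 0.151. Il33 was called without S04, S07 or S10, and Il1rn without S07 or S10. With sets of consecutive library numbers as a replicate block, Anxa1 was not called (4.81 ± 1.13, edgeR adjusted p = 0.0744). Without S04, the only tumor Lrig1-high library with a count of Ly6a, the average of Ly6a was -0.01 on the log2 scale. This average joins 3.03 in Lrig1-low cells and -3.06 in Lrig1-high cells, where no tumor count is left, so it is not a measured fold. DESeq2 called 5 of the 7 (Clu, Anxa1, Il33, Il1rn and Spp1) beside 7.75% of the genes it tested, and limma-voom with sample weights 4 of the 7 (Clu, Anxa1, Anxa3 and Il33) beside 3.95%.

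**Figure D2:**
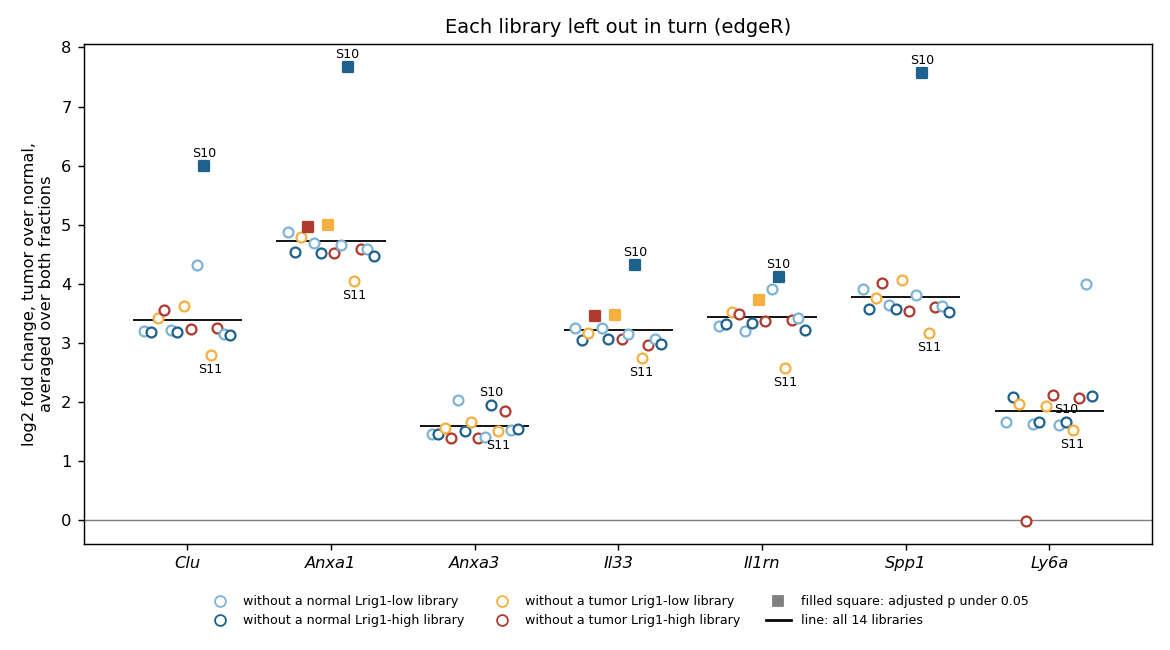
Log2 fold change of tumor over normal cells averaged over both fractions for the 7 tested genes, refitted in edgeR with each of the 14 libraries left out. A point is a fit without the library of the coloured group, a filled square has an adjusted p under 0.05 and the line is the fit on all 14; leaving out S10 gave the highest value for Clu, Anxa1, Il33, Il1rn and Spp1, and leaving out S11 the lowest for the same 5 genes.

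Within the Lrig1-low fraction, which compares tumor and normal cells with little reporter signal, the largest estimates were found for Anxa1, Spp1 and Il1rn, and none of the 7 genes passed the threshold. The log2 fold change was 6.14 ± 1.66 for Anxa1 (SE, n = 3 and 4, edgeR adjusted p = 0.101), 5.06 ± 1.42 for Il1rn (adjusted p = 0.113) and 5.24 ± 1.85 for Spp1 (adjusted p = 0.206). It was 4.68 ± 1.80 for Clu (adjusted p = 0.253), 3.25 ± 1.14 for Il33 (adjusted p = 0.203), 2.07 ± 1.07 for Anxa3 (adjusted p = 0.431) and 3.04 ± 1.58 for Ly6a (adjusted p = 0.435). Of all genes tested 46 passed, or 0.331%, 43 of them higher. Of the 7 genes 5 had an unadjusted p under 0.05, beside 14% of all genes. DESeq2 called 4 (Anxa1, Il33, Il1rn and Spp1) beside 5.16% of its genes, and limma-voom with sample weights 5 (Clu, Anxa1, Anxa3, Il33 and Il1rn) beside 10.0%. The tumor libraries lay above the normal ones without overlap for 4 of the 8 genes, Clu, Ly6a, Anxa1 and Anxa3, and for 9.95% of all genes tested. The median log2 fold change of the 7 was 4.68, against 0.02 over all genes, again a description of genes chosen with earlier results known. Without S10, whose group this comparison does not hold but which enters the estimate of the spread, Anxa1 was called at 6.14 ± 0.95 (adjusted p = 0.017) beside 1.74% of the genes in that fit. Leaving out S11 gave the lowest estimates, at 3.51 for Clu, 4.76 for Anxa1 and 3.33 for Il1rn, and leaving out S09 raised Clu to 6.57 and Il1rn to 6.04. Without S05 Anxa3 was at 2.96, and without S13 Ly6a had no count left in the normal group.

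Within the Lrig1-high fraction the estimates were positive for all 7 genes and smaller for all 7 than in the Lrig1-low fraction, and none passed the threshold. Il33, at 3.18 ± 1.14 on the log2 scale (SE, n = 3 and 4, edgeR adjusted p = 0.359), and Anxa1, at 3.33 ± 1.45 (adjusted p = 0.416), had unadjusted p-values under 0.05, beside 11.2% of all genes. Spp1 was at 2.31 ± 1.65 (adjusted p = 0.59), Clu at 2.10 ± 1.64 (adjusted p = 0.616), Il1rn at 1.82 ± 1.27 (adjusted p = 0.584), Anxa3 at 1.13 ± 1.07 (adjusted p = 0.676) and Ly6a at 0.68 ± 1.72 (adjusted p = 0.881). No gene of the whole table was called here, 0% of those tested, while DESeq2 called 0.834% of its genes and limma-voom with sample weights 0%, and neither called any of the 7. Without S10 the estimates rose to 7.31 ± 1.47 for Clu (adjusted p = 0.183), 9.21 ± 1.39 for Anxa1 (adjusted p = 0.172) and 5.39 ± 1.09 for Il33 (adjusted p = 0.183), where the Anxa1 value rests on 1 count in normal cells, and none was called. Without S04 the estimate of Ly6a was -3.06, against tumor libraries without a count. Without S07, S08, S09 and S10, the 4 libraries whose Lrig1 level went against the label, Clu (7.05 ± 0.94, adjusted p = 0.0416) and Anxa1 (8.81 ± 1.12, adjusted p = 0.0416, again on 1 count in normal cells) were called in this fraction beside 0.0858% of the genes in that fit. That fit had n = 2 tumor and 3 normal libraries in each fraction. In the Lrig1-low fraction it called 5 of the 7 beside 3.23%, Clu at 7.09 ± 0.93, Anxa1 at 6.57 ± 0.88, Il33 at 3.73 ± 0.85, Il1rn at 6.64 ± 1.12 and Spp1 at 5.96 ± 1.01.

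**Figure D3:**
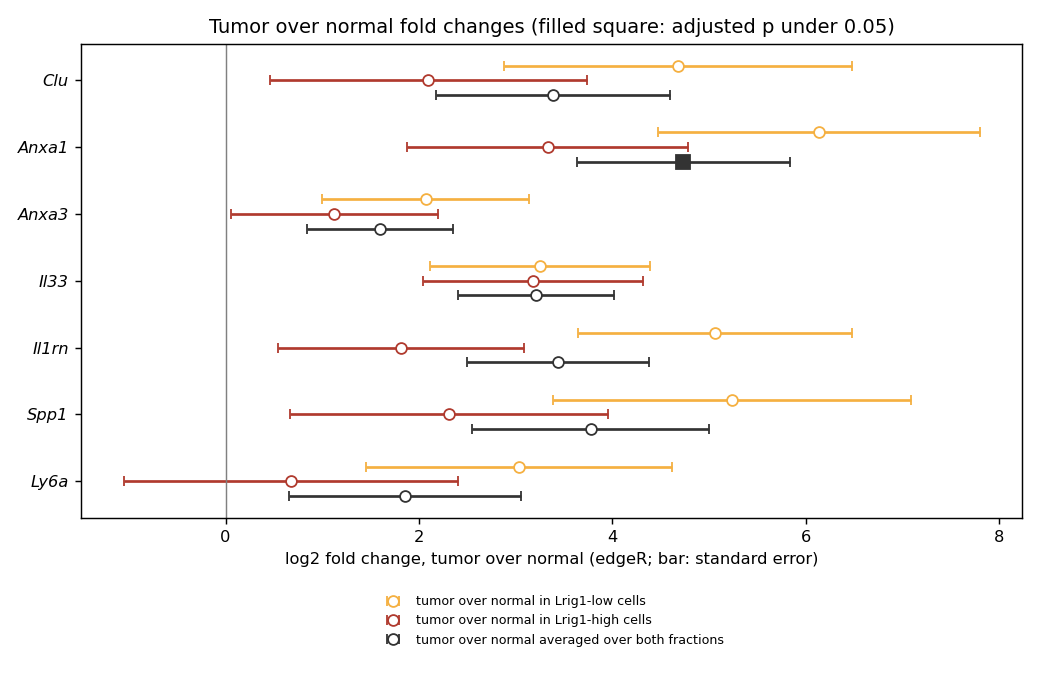
Log2 fold change of tumor over normal cells (edgeR, bar: standard error) for the 7 tested genes, in Lrig1-low cells (orange), in Lrig1-high cells (red) and averaged over both (black), with a filled square where the adjusted p is under 0.05. All estimates lie above 0, and Anxa1 averaged over both fractions (4.73 ± 1.10) is the only filled one.

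Whether the tumor difference itself differed between the fractions was tested with the interaction of tissue and fraction. None of the 7 genes passed it, with log2 differences (Lrig1-high minus Lrig1-low) from -0.08 ± 1.58 for Il33 (SE, edgeR adjusted p = 0.99) to -3.24 ± 1.86 for Il1rn (adjusted p = 0.71). The test called 0% of all genes, had no unadjusted p under 0.05 among the 7 beside 7.20% of all genes, and none of the 7 was called by DESeq2 or limma-voom, beside 0.0366% and 0% of all genes. The smaller estimates in the Lrig1-high fraction are therefore not shown to differ from those in the Lrig1-low fraction. Without S10 the interaction of Clu, Anxa1 and Il33 turned positive, at 2.63 for Clu and 3.08 for Anxa1, and it was not called.

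Between the fractions of one tissue the genes did not pass either. In tumors all 7 estimates of Lrig1-high over Lrig1-low were negative, from -0.39 ± 1.16 for Il33 (SE, n = 3 and 3, edgeR adjusted p = 0.948) to -3.64 ± 1.84 for Ly6a (adjusted p = 0.664), with 0% of all genes called and none of the 7 at an unadjusted p under 0.05, beside 7.51% of all genes. Ly6a and Anxa3 were lower in every tumor Lrig1-high library than in every tumor Lrig1-low library, as were 5.24% of the genes tested. In normal cells the estimates ran from -1.28 ± 1.58 for Ly6a to 1.79 ± 1.44 for Anxa1 (SE, n = 4 and 4, edgeR adjusted p = 1 for both), again with 0% of all genes called and none of the 7 at an unadjusted p under 0.05, beside 3.59% of all genes. DESeq2 and limma-voom with sample weights called none of the 7 in either tissue, beside 0.164% and 0% of all genes in tumors and 0.00731% and 30.0% in normal cells.

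In normal cells that picture rested on S10. Without it, the Lrig1-high over Lrig1-low estimates were -4.01 ± 1.26 for Clu (edgeR adjusted p = 0.25), -4.10 ± 1.43 for Anxa1 (adjusted p = 0.275) and -2.53 ± 0.96 for Il33 (adjusted p = 0.305), and none was called beside 0% of all genes. The Anxa1 value rests on 1 count in Lrig1-high cells. Clu, Anxa1, Il33 and Spp1 were each lower in S02, S06 and S14 than in all 4 normal Lrig1-low libraries, as were 13.8% of the genes tested. S10 itself had 253.1 times the median Clu of the other 3 normal Lrig1-high libraries, 13.8 times their median Il33, 6.73 times their median Il1rn and 3.57 times their median Anxa3. Its level was also above all 4 normal Lrig1-low libraries for Clu, Anxa1, Il33, Il1rn, Spp1 and, by its 1 count, Msln. S10 was 1 of the 4 libraries whose Lrig1 level went against the label, and the part of a sort or label difference in these values was not tested.

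Of 23 further genes of the fetal and regenerative programme, 19 were tested, and 4 of these were higher in tumor cells averaged over both fractions and none was lower, where 253 of 13883 genes were higher and 2.22% were called in either direction. Anxa5 was at 1.66 ± 0.35 on the log2 scale (SE, edgeR adjusted p = 0.0325), Ly6e at 1.40 ± 0.31 (adjusted p = 0.0348) and Tubb6, which encodes a beta-tubulin, at 4.88 ± 1.10 (adjusted p = 0.04), and the remaining gene was Anxa8. Tubb6 was at 0.571 CPM or less in 7 of the 8 normal libraries and at 3.15 CPM in S10, and the tumor libraries ran from 1.98 CPM in S04 and 2.88 CPM in S07 to 40.9 CPM in S11, so that only S04 and S07 lay below a normal library, S10. In this comparison 18 of the 19 were positive and their median was 1.40 on the log2 scale. The median was 1.77 with 18 positive and 0 called in Lrig1-low cells, and 0.97 with 16 positive and 0 called in Lrig1-high cells, where 10 and 4 had an unadjusted p under 0.05, beside 14% and 11.2% of all genes. Limma-voom with sample weights called 9 and 0 of the 19, beside 10.0% and 0%. This list too was chosen with earlier results of these data known, so its shares and medians are descriptions only.

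**Figure D4:**
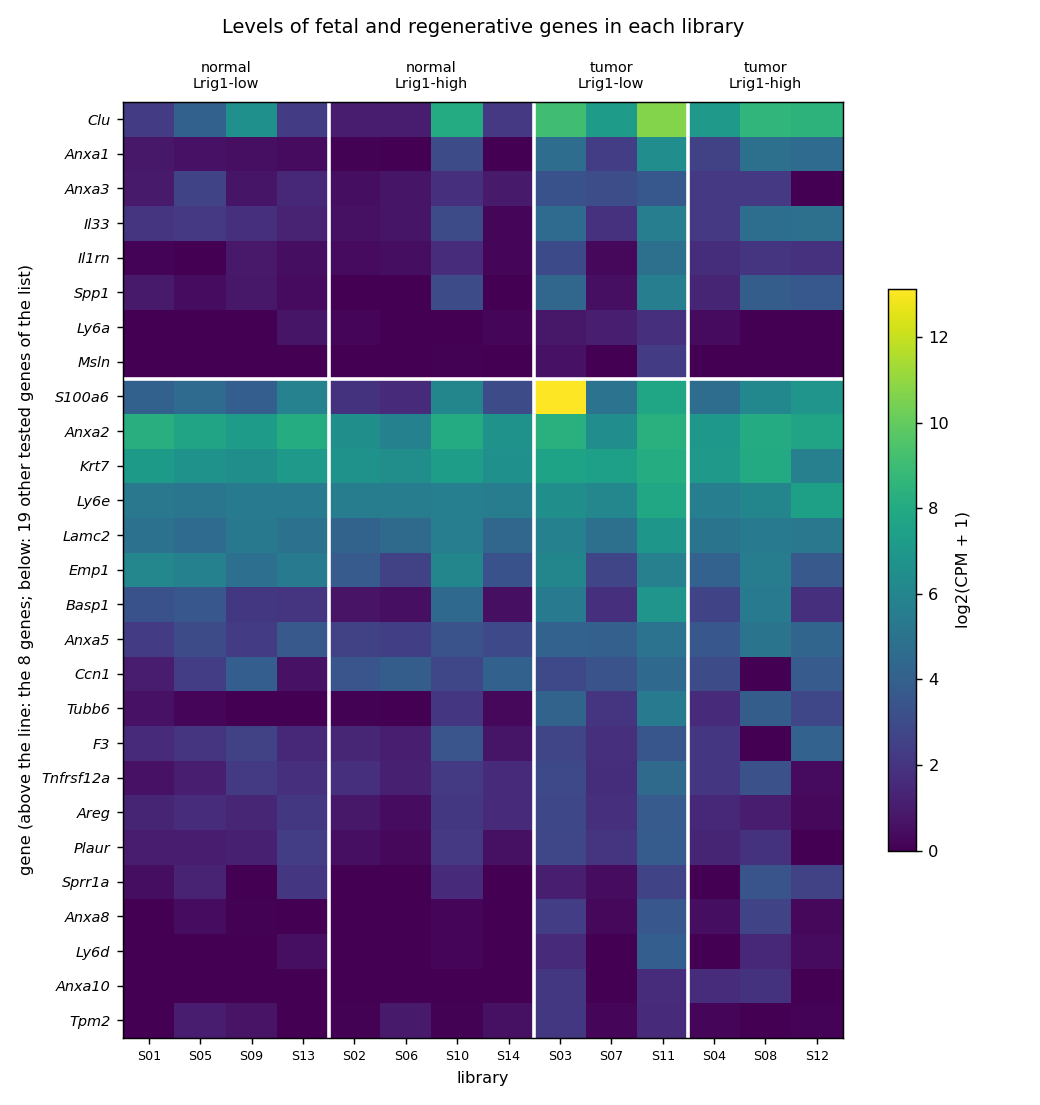
Level of the 8 genes (above the line) and of the 19 other tested fetal and regenerative genes (below it) in the 14 libraries, as log2(CPM + 1) on a colour scale from 0 (dark) to 13 (yellow), with libraries in columns by group. The column of S11 is the brightest of the tumor columns for most genes and the column of S10 the brightest of the normal Lrig1-high columns, and S100a6 in S03 (8922 CPM) is the brightest cell.

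The families of the genes moved only in part. Of the 10 other annexins, all tested, Anxa5 and Anxa8 were higher in tumor cells averaged over both fractions, at 1.66 ± 0.35 and 5.34 ± 1.22 on the log2 scale (SE, edgeR adjusted p = 0.0325 and 0.0421), and 8 did not pass, with a median of 0.51 over the 10. Anxa4 and Anxa13, the 2 with the highest mean CPM per kilobase, were among those that did not pass. This comparison called 2.22% of all genes tested. Of 14 other genes of the Ly6 and uPAR family 5 were tested and Ly6e was called in the same comparison. Ly6e was at 34.0 to 49.6 CPM in the 8 normal libraries and at 91.0, 67.4, 235.6, 47.6, 64.3 and 175.5 CPM in S03, S07, S11, S04, S08 and S12, so only S04 lay among the normal libraries. Lypd8, which encodes an anti-bacterial protein of the gut surface and was the most abundant family member at a mean of 1057 CPM, had an estimate of -0.31 ± 0.29 and did not pass.

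The partners of the secreted members were tested next. CD44 and integrin alpha V are receptors of osteopontin. Cd44 was at 20.8, 20.7, 54.9 and 18.9 CPM in the normal Lrig1-low libraries S01, S05, S09 and S13 and at 144.3, 286.7 and 294.2 CPM in the tumor Lrig1-low libraries S03, S07 and S11, without overlap. In the Lrig1-high fraction the normal libraries S02, S06, S10 and S14 had 88.7, 135.6, 53.2 and 84.3 CPM and the tumor libraries S04, S08 and S12 had 231.2, 120.1 and 221.4 CPM, where S08 lay below S06. Its log2 fold change was 3.07 ± 0.44 in Lrig1-low cells (SE, edgeR adjusted p = 0.0106), 1.08 ± 0.42 in Lrig1-high cells (adjusted p = 0.384) and 2.07 ± 0.30 averaged over both fractions (adjusted p = 0.00618). Itgav was 1.25 ± 0.29 higher on the log2 scale in the average (adjusted p = 0.0446). These were the 2 of 10 tested genes of osteopontin reception and processing that passed in the average, beside 2.22% of all genes. Mmp3, an enzyme that cleaves osteopontin, had no count in any library.

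Of the partners of clusterin, annexin A1 and mesothelin 4 of 10 genes were tested. In the average over both fractions, which called 2.22% of all genes, S100a11, which binds annexin A1, was higher in tumor cells at 2.70 ± 0.39 on the log2 scale (SE, edgeR adjusted p = 0.00618). It was at 6.18 to 14.7 CPM in the 8 normal libraries and at 40.3, 38.2, 77.8, 23.2, 47.2 and 173.5 CPM in S03, S07, S11, S04, S08 and S12, without overlap, as for 0.886% of the genes tested. The formyl peptide receptors Fpr1, Fpr2 and Fpr3, which annexin A1 acts through, and Trem2, a receptor for clusterin on phagocytes, had no count in any of the 14 libraries. In the interleukin-1 and interleukin-33 axis 8 of 13 genes in the table were tested and none was called in any of the tumor comparisons by edgeR, with 1 of 8 at an unadjusted p under 0.05 in each, and 1 was called by limma-voom in Lrig1-low cells and in the average. The median log2 fold change of the average was -0.13. Casp1, which processes interleukin-1 and interleukin-18, was at 19.3 to 106.8 CPM, Il18 at 3.65 to 49.4 CPM and Myd88, the adaptor of the receptors, at 20.6 to 30.3 CPM over the 14 libraries. Il1rl1, which encodes the receptor of interleukin-33, had at most 0.423 CPM.

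Of 14 genes of YAP, TEAD and AP-1 factors, all tested, Tead1 alone was called, at 0.84 ± 0.17 on the log2 scale in the average over both fractions (SE, edgeR adjusted p = 0.0297). That comparison called 2.22% of all genes. Tead1 was at 29.8 to 66.2 CPM in the normal libraries and at 63.4, 67.7, 100.8, 60.1, 76.5 and 93.1 CPM in S03, S07, S11, S04, S08 and S12, so only S06 of the normal libraries, at 66.2 CPM, reached the range of the tumor ones. Yap1 was at 56.8 to 82.4 CPM in the normal libraries and at 75.6 to 119.2 CPM in the tumor libraries, and did not pass.

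Markers of other cell types were examined because several of the 8 genes are also expressed outside the epithelium. The 9 endothelial markers summed to 2.26 to 6.67 CPM in normal Lrig1-low libraries, 2.17 to 45.0 CPM in normal Lrig1-high, 20.4 to 216.2 CPM in tumor Lrig1-low and 7.53 to 52.3 CPM in tumor Lrig1-high libraries, with the highest values in S11, S03, S08 and S10. S11, S03 and S08 were also the libraries with the highest Clu, Anxa1, Il1rn and Spp1, and S10 the normal library with the highest level of these 4 genes and of Il33. Cdh5 was at 154.9 CPM in S11, 32.0 CPM in S03, 30.2 CPM in S10 and 24.4 CPM in S08. Flt1 was at 23.8 CPM in S11 and 18.6 CPM in S08, and Vwf at 21.4 CPM and Tek at 14.6 CPM in S11. Pecam1 was at 1.85 CPM or less, Kdr at 0.222 CPM or less and Cldn5 at 0 in the 14 libraries. Of 5 tested endothelial markers 4 had positive log2 fold changes in Lrig1-low cells, with a median of 4.21, and none was called by edgeR, while limma-voom with sample weights called 4. The 9 fibroblast markers summed to 0.541 to 26.9 CPM, with the highest value in S11 and mostly from Pdgfra (26.1 CPM in S11), while Col1a1 was at 0.859 CPM or less and Lum at 0. The 7 mesothelial markers, of interest for Msln, summed to 4.12 CPM at most, in S10. The 10 macrophage and monocyte markers, of interest for Spp1, summed to 3.14 to 17.9 CPM, where Itgam was the highest except in S11 and S12, in which it was Cd68 (2.52 and 2.05 CPM), with Adgre1 at 0.145 CPM or less and Csf1r at 0.282 CPM or less, and the 7 neutrophil markers to 1.26 CPM at most. The 8 leukocyte markers summed to 8.71 to 46.2 CPM, and the highest sum, in S07, was mostly Lcp1 (45.5 CPM). Ptprc was at 46.1 CPM in S08 and 11.2 CPM or less elsewhere. In S08 the other leukocyte markers, Cd52, Coro1a, Laptm5, Lcp1, Cd3e, Cd79a and Cd8a, were at 0. The 6 smooth muscle markers summed to 0.0662 to 1.16 CPM in the normal libraries and to 7.11 CPM in S11 and 36.2 CPM in S12, from Acta2 (6.96 CPM in S11 and 12.8 CPM in S12) and Myh11 (23.5 CPM in S12), while Des, Cnn1 and Actg2 were at 0. Acta2, the 1 tested of them, was at 3.67 ± 0.95 on the log2 scale in the average (SE, edgeR adjusted p = 0.0615). Markers of epithelial cell types also varied. The 7 tuft cell markers summed to 358.9 CPM in S10 and to 17.2 to 51.1 CPM in S02, S06 and S14. They summed to 20.1 to 459.1 CPM in normal Lrig1-low libraries, highest in S05. In tumors they summed to 938.5 CPM in S08, 390.8 CPM in S11, 352.7 CPM in S03 and 44.4 to 65.3 CPM in S04, S07 and S12. The 7 Paneth cell markers summed to 429.2 CPM in S10 and to 1951 to 13940 CPM in S02, S06 and S14. The 8 M cell markers summed to 55.3 to 170.4 CPM over the 14 libraries. The 8 stem cell markers summed to 246.6 CPM in S10 and to 5423, 5655 and 3915 CPM in S02, S06 and S14. They summed to 266.7 to 1408 CPM in normal Lrig1-low libraries. In tumors they summed to 5278 CPM in S07, 5003 CPM in S04, 3033 CPM in S12, 1142 CPM in S11, 632.8 CPM in S03 and 490.8 CPM in S08. The part of any of these transcripts in the levels of the 8 genes was not tested.

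The genes most like each of the 7 tested ones were found by Pearson's r of log2(CPM + 1) over the 14 libraries, among tested genes with a mean of at least 5 CPM. The points share tissue, fraction and the high values of S10 and S11, so these are descriptions. Clu was most like Ctse (r = 0.984, Spearman's rho = 0.974), a cathepsin, Robo1 (r = 0.978, rho = 0.981) and Notum (r = 0.971, rho = 0.956), a secreted Wnt antagonist. Anxa1 was most like Tubb6 (r = 0.980, rho = 0.913), Stra6 (r = 0.976, rho = 0.937) and Msrb3 (r = 0.974, rho = 0.911). Il33 was most like Pea15a (r = 0.972, rho = 0.947), followed by Prr18 and Plk2, and Il1rn most like Htra1 (r = 0.965, rho = 0.910), followed by Bpifb5 and Lepr. Spp1 was most like Lepr (r = 0.985, rho = 0.908), which encodes the leptin receptor, followed by Prdm1 and Htra1. Anxa3 had no gene above Ckap4 (r = 0.886, rho = 0.912), and Ly6a, with 7 libraries at 0, was most like Ube2z (r = 0.934, rho = 0.828). By Spearman's rho, Spp1 was among the 3 genes most like Anxa1 (rho = 0.970), and Anxa1 among the 3 most like Spp1 and the 3 most like Il33 (rho = 0.961).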

How the data were processed

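RNA sequencing libraries of sorted mouse intestinal epithelial cells were analysed. Trimmomatic, HISAT2 and Subread are listed, with the mm10 build, in the submitters' processing notes. The deposited values are raw counts of reads over RefSeq exons, from featureCounts 1.5.3 with reverse strandedness per the file headers, beside a deposited column of exon length in bases. Symbols were matched to 25275 gene numbers in RefSeq and 18 in GENCODE M21. Of 15 libraries S15 (under 1000 counts) was left out, and the other 14 held 9508505 to 17296536 counts. Rows without a symbol (3.96% to 7.80% of counts) stayed in the fits.

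From the counts, edgeR 4.0.16 under R 4.3.3 fitted 1 coefficient per group (TMM scaling, filterByExpr, quasi-likelihood F test, Benjamini-Hochberg over 13883 genes, called at an adjusted p under 0.05). An SE is the size of the log2 fold change over the root of its F value, and CPM uses the TMM factors. Alternatives were DESeq2 1.42.0, limma 3.58.1 (voom with sample weights), other scaling and filters, a replicate block and left-out libraries. Leaving out S09 with S10, and S10 with S11, was chosen after seeing the data. The scripts were tested on simulated data. The 8 genes and the gene lists were chosen with earlier results of these data known, and 1 gene of a list is not reported here. From each list the text names up to 3 called genes per direction by adjusted p, or else the 3 with the highest mean CPM per kilobase. Receptors of the 8 genes, Mmp3, Yap1, Lypd8, Anxa4, Anxa13 and Anxa8 among the fetal genes, S100a6, Fosl1, Wwtr1, Fos, Fosb and the single cell type markers were named after their values were seen.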

Additional observations from a re-analysis of the deposited data

Results flagged for a closer look

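Within the normal groups, which have 4 libraries each, a library was far from the other 3 of its group (by Dixon's criterion at the 95% level) in 8 of 15 groups of values tested. Chance gives about 1 in 20 for normally distributed values, and skewed CPM near 0 can meet the criterion more often. In 3 of the 8 the other 3 libraries had no count, so any count meets it. S10 was that library in 6 of the 8, so these are not independent. In normal Lrig1-high cells it had 271.4 CPM of Clu against at most 3.55 CPM in the others, 7.27 CPM of Anxa1 against at most 0.0631 CPM, 6.97 CPM of Il33 against at most 0.662 CPM, 2.12 CPM of Il1rn against at most 0.397 CPM, 7.03 CPM of Spp1 against 0, and 0.0606 CPM of Msln, 1 count, against 0. In normal Lrig1-low cells S09 had 96.7 CPM of Clu against at most 15.6 CPM in the others, and S13 had 0.700 CPM of Ly6a, 9 counts, against 0. The groups of 3 tumor libraries are too small for the criterion.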

How the results depend on the processing

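The counts of called genes moved most. In Lrig1-low cells, 46 genes and 0 of the 7 tested genes were called by edgeR, against 706 and 4 with DESeq2, 1389 and 5 with limma-voom, 452 and 5 without S07 to S10, 310 and 2 without S09 and S10, 5 genes without S10 and S11, 70 with DESeq2 size factors, 86 at 1 CPM in at least 4 libraries, 92 with S15 included, and 1 of the 7 in a fit of only the groups compared. Averaged over both fractions, 308 genes and 1 of the 7 became 1060 and 5 with DESeq2, 548 and 4 with limma-voom, 658 and 5 without S07 to S10, 466 and 5 without S09 and S10, 170 and 4 without S10 and S11, and 2 of the 7 with S15 included. In Lrig1-high cells, 0 genes became 114 with DESeq2 and 12 (2 of the 7) without S07 to S10. Between fractions of normal cells 0 became 1 with DESeq2, 4169 with limma-voom, 796 without S07 to S10 and 2 without S09 and S10, between those of tumors 22 and 48 with DESeq2 and without S07 to S10, and for the interaction 5 with DESeq2 and 1 without S09 and S10. Leaving out 1 library gave 0 to 285 genes (0 to 1 of the 7) in Lrig1-low cells, 0 to 807 in Lrig1-high cells, 34 to 1060 (0 to 5 of the 7) in the average, 0 to 365 between tumor fractions and 0 to 157 for the interaction. The cause of these shifts was not tested.

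The library numbers run in sets of consecutive numbers over the groups. Same-set libraries did not regularly deviate together from their group means (r from -0.37 to 0.491 over 19 pairs, 8 over 0.1, and 6 of 14 libraries most like their own set). The group means include S07 to S10, whose Lrig1 level went against the label, so whether a set shared an animal cannot be told. With the sets as a replicate block, 95 genes were called in Lrig1-low cells, 1 in Lrig1-high cells and 165 in the average, where 0 of the 7 was called (Anxa1 at 4.81 ± 1.13, adjusted p = 0.0744). The block gave log2 values between fractions of normal cells of -0.15 for Clu, -0.27 for Anxa1 and -0.63 for Spp1, and interactions of 0.062 for Anxa1, 1.22 for Il33 and 0.41 for Spp1.

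No direction of tumor over normal changed except that of Ly6a, at -0.012 to 3.99 in the average and -3.06 to 1.23 in Lrig1-high cells when 1 library was left out. Directions between fractions, none called, changed often. In normal cells the log2 values were, with limma-voom, without S07 to S10, without S09 and S10 and without S10 and S11, -1.99, -2.05, -2.07 and -4.02 for Clu, -3.03, -4.13, -4.15 and -4.10 for Anxa1 and -3.63, -5.79, -5.81 and -6.01 for Spp1, and -0.23 for Il1rn in the last. With 1 library left out they ran from -4.01 to 3.17 for Clu, -4.10 to 2.21 for Anxa1, -6.01 to 1.99 for Spp1, -0.24 to 2.18 for Il1rn, -2.53 to 0.091 for Il33 and -1.84 to 3.07 for Ly6a. In tumors they ran from -1.55 to 0.36 for Anxa1 and -0.92 to 0.53 for Il33, with 0.36 and 0.53 also without S10 and S11. The interaction was 0.57 for Clu, 1.74 for Anxa1, 0.90 for Il33 and 1.81 for Spp1 with limma-voom, 2.24, 1.40 and 3.43 for the last 3 without S07 to S10, 0.67 for Clu, 3.11 for Anxa1, 0.062 for Anxa3, 2.15 for Il33 and 4.43 for Spp1 without S09 and S10, and 3.80, 4.46, 3.06 and 5.84 for Clu, Anxa1, Il33 and Spp1 without S10 and S11. With 1 library left out it ran from -4.50 to 2.63 for Clu, -3.33 to 3.08 for Anxa1, -0.61 to 2.14 for Il33 and -3.51 to 4.64 for Spp1. The Spp1 values without S10 are set against normal Lrig1-high libraries with no count. The -3.06 of Ly6a, which also enters its -0.012, is set against tumor libraries with none. The Ly6a values of 3.99 and 3.07, without S13, are set against normal Lrig1-low libraries with none. The size of all these values depends on the prior count and is neither a measured fold nor a bound. Depth limits Ly6a and Msln, whose counts were 0 to 54 per library.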

Other observations

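Some genes of the lists were high in a single library. S100a6, a calcium-binding protein of the fetal and regenerative list, was at 8922 CPM in the tumor Lrig1-low library S03, against 217.2 CPM in S11, the next highest, and 1.92 to 64.2 CPM in the normal libraries. Anxa4 was at 4385 CPM in the normal Lrig1-low library S13, against 249.3 to 603.9 CPM in the other 13. Il1r1, which encodes the receptor that Il1rn blocks, was at 11.4 CPM in S11, the library with the highest Il1rn, against 2.61 CPM or less in the others.

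The AP-1 subunit gene Fosl1 was at 11.8 CPM in S11, 4.44 CPM in S03 and 3.01 CPM in S08, while no other library had more than 2.58 CPM. Wwtr1, which encodes the YAP paralogue TAZ, was at 0.805 to 0.933 CPM in the normal Lrig1-low libraries S01, S05 and S13 and at 4.69 CPM in S09, and it was at 39.9 CPM in S11. Not all genes of that list peaked in S11. Fos was highest in S09 (291.9 CPM) and at 94.1 CPM in S11, and Fosb was highest in S09 (130.5 CPM) and at 34.3 CPM in S11.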
